A study of Mus musculus with 36 samples.

Results

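Nlrp3, Pycard, Casp1, Casp4, Casp8, Gsdmd, Gsdme, Mlkl, Ripk1 and Ripk3 are genes of the inflammasome, of pyroptosis and of necroptosis. They were taken by gene name from a table of read counts for 54532 genes, in which each of these 10 genes had a row. The counts came from bone marrow–derived macrophages (BMDMs) of female C57BL/6 mice aged 13 to 17 weeks, grown for 7 days with MCSF. KO cells carried LysM-Cre and Bmal1 flox/flox, in which the myeloid LysM promoter drives the Cre that removes part of the clock gene Bmal1. WT cells carried Bmal1 flox/flox without Cre, so that every group held the floxed alleles. Both genotypes were exposed for 6 h to 1 of 4 treatments, which were vehicle (DMSO), CCM at 100 µM, LPS at 100 nM, and LPS and CCM together (LPS+CCM). CCM (Core Circadian Modulator) is a small molecule that binds the PASB domain of BMAL1, and LPS is the bacterial lipopolysaccharide sensed by TLR4. Each treatment had 3 WT and 6 KO libraries, 36 in all. The labels do not say whether libraries with different replicate numbers came from separate animals, so p-values measure only the spread between these libraries.

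An inflammasome is a cytosolic complex in which a sensor such as NLRP3 recruits the adaptor ASC, the product of Pycard, and caspase-1, the product of Casp1. Caspase-1 matures IL-1β and IL-18 and cleaves gasdermin D, whose N-terminal part forms pores in the plasma membrane; this lytic death is pyroptosis. Mouse Casp4 encodes caspase-11, which binds cytosolic LPS itself and cleaves gasdermin D directly, and in macrophages a first signal such as LPS is known to raise transcription of several of these genes before a second signal assembles the complex. In necroptosis, RIPK1 and RIPK3 form a kinase complex that phosphorylates MLKL, the protein that breaches the membrane, and caspase-8 holds this route in check.

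The promoters of these genes are shown first because LPS acts on macrophage genes through NF-κB and interferon factors, and because BMAL1 with its partner CLOCK binds the E-box CACGTG. RefSeq windows of 300 bases (GRCm38.p6, from 250 bases before a transcription start) were at hand for 9 of the 10 genes, 12 windows in all. They were searched on both strands for the E-box, the core of the interferon-stimulated response element (GAAANNGAA), the gamma-activated sequence (TTCNNNGAA) and the NF-κB consensus, which may overlap each other. Among all 32851 promoter windows of this length, 7.15% held the E-box, 8.56% the interferon-stimulated core, 8.3% the gamma-activated sequence and 4.51% the NF-κB consensus. The stretches around the NF-κB match of Casp4 and Nlrp3 and around the E-box of Casp1 and Ripk3 are given 5′ to 3′ on the gene's strand, with the match in capitals.
Casp4, chr9:5308726-5308796, plus strand: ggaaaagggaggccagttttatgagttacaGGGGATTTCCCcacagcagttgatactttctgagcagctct
Nlrp3, chr11:59541353-59541422, plus strand: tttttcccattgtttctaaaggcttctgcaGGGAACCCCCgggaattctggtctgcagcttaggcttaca
Casp1, chr9:5298350-5298415, plus strand: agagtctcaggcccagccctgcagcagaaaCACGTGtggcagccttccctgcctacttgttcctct
Ripk3, chr14:55788883-55788948, minus strand: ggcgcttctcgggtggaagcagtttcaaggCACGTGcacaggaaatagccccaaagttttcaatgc
In Casp4 the capitals hold 2 overlapping matches that begin 93 and 92 bases before the start. The match of Nlrp3 begins 186 bases before its first start, and a second Nlrp3 window held none of the 4 motifs. The E-box begins 137 bases before the start in Casp1 and 61 bases before it in Ripk3. Ripk3 also held an interferon-stimulated core 14 bases into the transcribed part. At a second start, Ripk1 had a gamma-activated sequence 108 and 11 bases upstream and an interferon-stimulated core 5 bases upstream. The windows of Mlkl, Casp8, Gsdme and Pycard held none of the 4. A match is a run of letters and not a measured binding site.

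Libraries held 13469262 to 28288923 counts on genes, and values are given as CPM, counts per 1000000 of a library's total after TMM scaling over the 36 libraries. All 8 macrophage markers listed were present. They summed to 4660 to 4940 CPM in WT without LPS and to 7810 to 8310 CPM with it. The 5 fibroblast markers summed to 326 to 1350 CPM in WT without LPS and to 514 to 729 CPM with it. In KO these sums were 295 to 1380 CPM without LPS and 324 to 1660 CPM with it. The part of fibroblasts in the results was not tested. Gene-level counts of Bmal1 (Arntl) ran from 7.27 to 12.9 CPM in WT and from 2.13 to 10.7 CPM in KO, and these ranges over all treatments overlap. With LPS+CCM the ranges were apart, at 11.5 to 12.9 CPM in WT and 3.94 to 9.32 in KO. The KO median lay below the WT median in each treatment. A count over the whole gene does not resolve the floxed part, so it does not check the labels. The library numbered 6 stood apart in each of the 4 KO treatments, where 31.1 to 47.1% of 15706 genes deviated by more than 1 on the log2 scale from the other KO libraries, against at most 10.8% for any other KO library. Its 9 neutrophil markers summed to 1150 to 1210 CPM, the highest sum of each KO treatment, where the other KO libraries ran from 425 to 1120 CPM. Over all libraries S100a8 had 97.7 to 424 CPM, S100a9 135 to 500, Ngp 97.0 to 274 and Ltf 20.1 to 171, and Ly6g had at most 0.58 and was at 0 in 3 libraries. Its macrophage sum was the lowest of its treatment with vehicle (4180 against 4600 to 5070 CPM) and with CCM (3610 against 4510 to 5150 CPM). Its T cell sum (3.70 to 9.03 CPM) and its erythroid sum (4.43 to 10.9 CPM) were the highest of each KO treatment. Its deviation correlated with GC content (Spearman's rho 0.318 to 0.378) and with transcript length (rho −0.432 to −0.374) across genes, which are not independent replicates. In the other KO libraries rho ran from −0.327 to 0.123 with GC content and from −0.369 to 0.426 with length. Correlations of like size there were thus mostly of the opposite sign, and those deviations were taken from means that held replicate 6. With the sign of replicate 6, rho in the other KO libraries reached 0.123 with GC content and −0.369 with length. The part of these features in the results on KO cells was not tested, and values without this library are given where it carries a result.

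**Figure D1:**
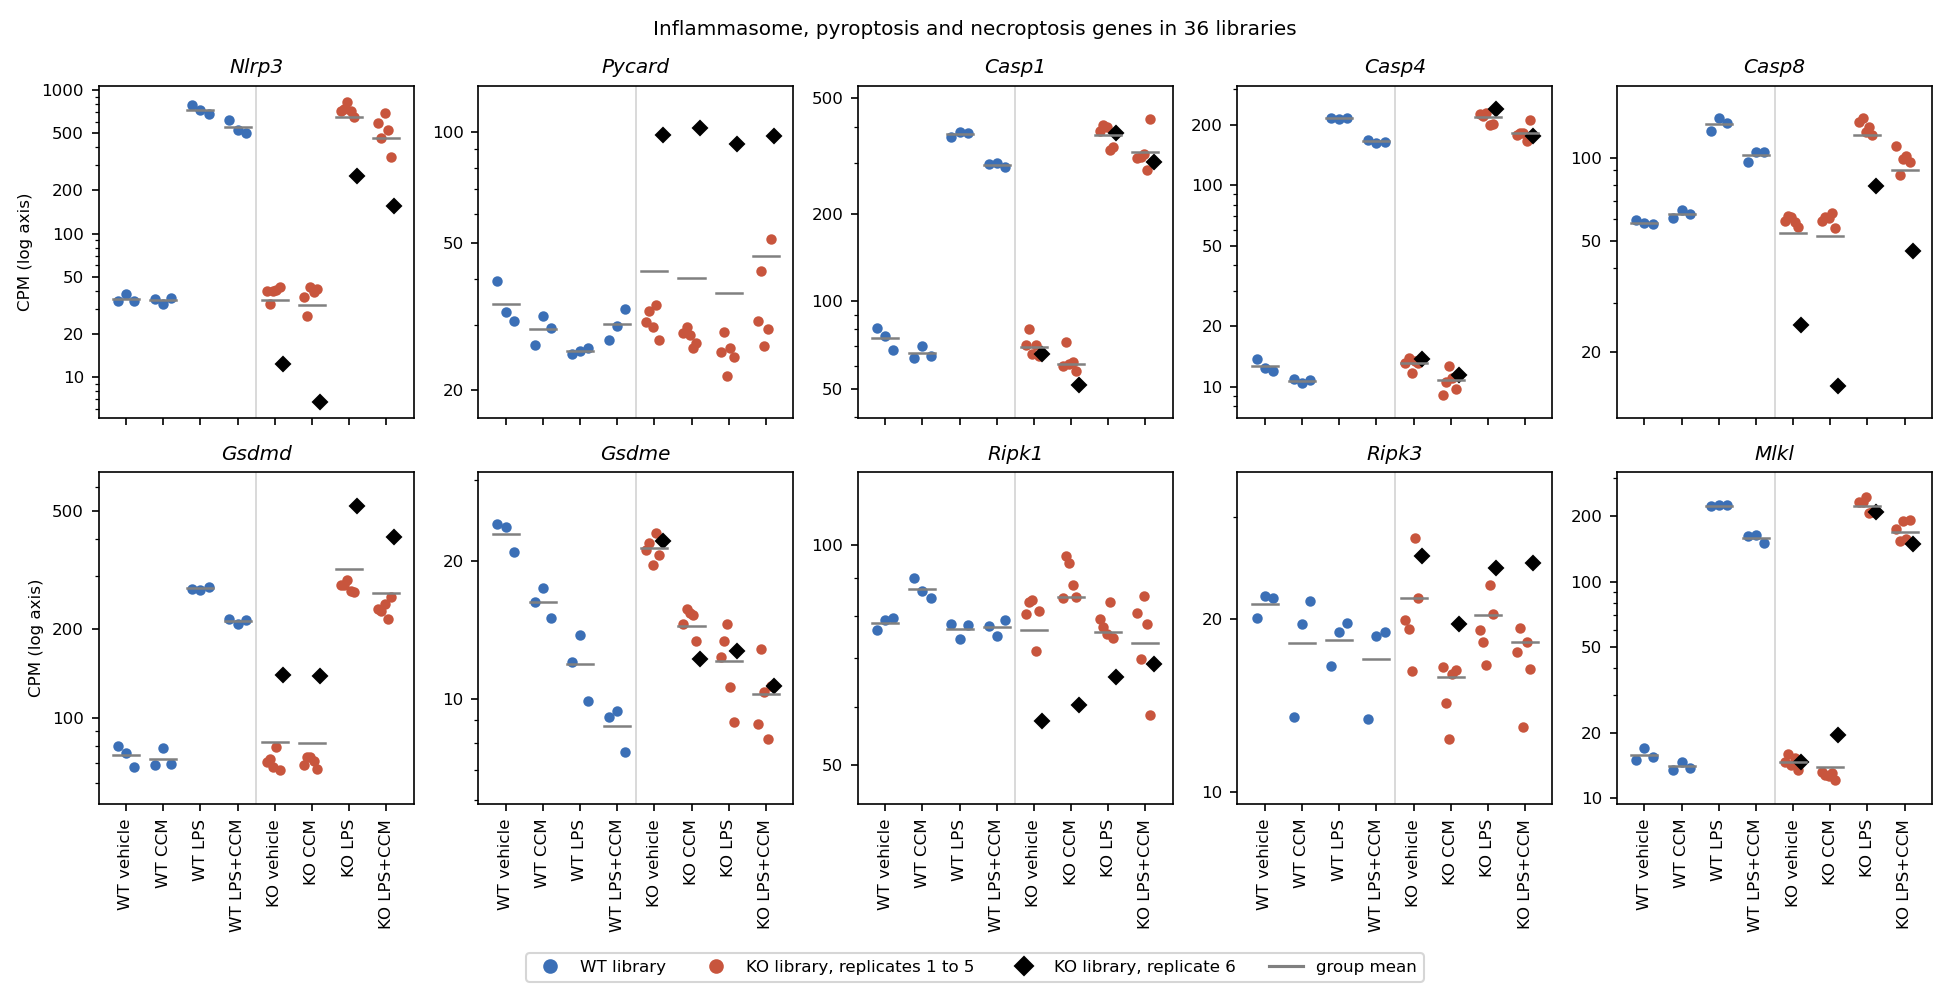
CPM (log axis) of each of the 10 genes in every library of the 8 groups; circles are libraries (blue WT, red KO), black diamonds KO replicate 6, and grey bars group means. Nlrp3, Casp1, Casp4, Casp8, Gsdmd and Mlkl stand higher in the LPS groups of both genotypes, and KO replicate 6 lies apart for Pycard (93.0 to 102 CPM), Nlrp3, Casp8 and Gsdmd.

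Unstimulated WT macrophages had RNA of every one of the 10 genes. Compared per kilobase of exonic sequence, Casp1 was highest in the WT vehicle libraries at 50.1 ± 4.25 CPM per kb (SD, n = 3), ahead of Gsdmd at 31.4 ± 2.60 and Casp8 at 20.2 ± 0.387. Ripk1, Ripk3, Pycard and Nlrp3 followed between 9.38 and 8.69 CPM per kb, and neighbours in that stretch of the order had overlapping ranges. Mlkl (6.85 ± 0.470), Casp4 (3.42 ± 0.261) and Gsdme (1.80 ± 0.135) were the lowest, each apart from its neighbours. The length used is the union of a gene's exons, which lowers the level per kb where shorter transcripts are used. This union has 12742 bases for Gsdme and 3710 for Casp4, whose longest transcripts have 4628 and 1901 bases. The places of such genes in the order, with vehicle and with LPS, can depend on the length used. After LPS the order changed: Casp1 stayed first at 252 ± 4.94 CPM per kb, Nlrp3 came second at 180.0 ± 12.6, and Gsdmd (115), Mlkl (97.6 ± 0.644), Casp4 (57.8 ± 0.178) and Casp8 (45.8 ± 2.50) all stood above Ripk1 (9.19 ± 0.251). With these lengths no neighbours overlapped in the WT LPS group. In KO vehicle libraries Casp1 was also first, at 46.6 ± 3.82 CPM per kb (n = 6), and Gsdme last at 1.68 ± 0.0931.

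LPS against vehicle asks which of these genes a first, TLR4-driven signal changes in macrophages. In WT cells 6 of the 10 rose, Nlrp3, Casp4, Mlkl, Casp1, Gsdmd and Casp8, by 2.28- to 20.9-fold, and 2 fell, Gsdme and Pycard. The response to LPS was wide, with 30.6% of 14501 tested genes higher and 32.4% lower, and the 10 genes had a median log2 fold change of 1.53 against −0.05 over all genes tested. In KO cells the same 6 rose, and Gsdme fell, where 22.4% of 13648 genes were higher and 24.7% lower. Their median there was 1.55, against −0.05 over all genes. Genes were called at an adjusted p of at most 0.05 by edgeR's quasi-likelihood test with Benjamini-Hochberg adjustment over all genes tested. Scaling by total counts alone moved the median of all genes to −0.47 in WT and −0.44 in KO and the calls to 2551 higher and 8060 lower in WT, from 4441 and 4698, and to 1825 and 5708 in KO, from 3060 and 3373. In bulk RNA a smaller number of cells of a type and less RNA per cell cannot be told apart.

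Nlrp3 (chr11:59541568-59566956), the sensor, changed most. WT vehicle libraries had 33.9, 38.0 and 33.8 CPM and WT LPS libraries 787, 722 and 686. The groups were far apart, with a log2 fold change of 4.38 (SE 0.08, adjusted p = 5.2e-11, edgeR). KO vehicle libraries ran from 12.3 over a median of 40.0 to 42.4 CPM and KO LPS libraries from 254 over 717 to 822, a log2 change of 4.21 (SE 0.34, edgeR adjusted p = 2.7e-07). The lowest value of both KO groups was replicate 6, and without it the change was 4.20 on the log2 scale. Its level there was 0.315 times the mean of the other KO libraries with vehicle and 0.348 times with LPS.

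Pycard (chr7:127989708-127993867), the adaptor, moved the other way and by much less. In WT it went from 39.6, 32.5 and 30.8 CPM with vehicle to 25.1, 25.5 and 26.1 with LPS, and the groups did not overlap. The log2 fold change was −0.42 (SE 0.09, edgeR adjusted p = 0.0030). In a fit of all 36 libraries together, where 18.3% of genes were called lower, this call was lost (adjusted p = 0.61, edgeR). Groups of libraries without overlap were seen for 65.7% of 15720 genes for LPS in WT and for 28.1% in KO. In KO cells the fitted change was −0.20 (SE 0.44, edgeR adjusted p = 0.75), although Pycard was lower with LPS in 6 of 6 same-numbered pairs of libraries. Replicate 6 had 98.3 CPM with vehicle and 93.0 with LPS, where the other KO libraries had 27.3 to 34.0 and 21.9 to 28.8. Without that library the change was −0.30 (edgeR adjusted p = 0.0041; 36.9% of genes called lower), and blocked by replicate number over all 6 it was −0.26 (edgeR adjusted p = 0.0024; 37.5% called lower). Pycard shares 485 of its 3800 exonic bases with Gm45205 on the opposite strand, and how the counting used strand is not given in the sources used here.

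The inflammatory caspases Casp1 and Casp4 are neighbours on chromosome 9 (chr9:5298517-5307265 and chr9:5308828-5336783), in the same orientation. Casp4 had the larger rise. It went from 13.8, 12.4 and 11.9 CPM to 215, 214 and 215 in WT, a log2 change of 4.08 (SE 0.07, edgeR adjusted p = 3.4e-11). In KO it went from between 11.7 and 13.9 CPM with vehicle to between 199 and 239 with LPS, by 4.04 (SE 0.09, edgeR adjusted p = 1.7e-11). Casp1 rose by less on the log2 scale. WT libraries had 80.8, 76.1 and 68.2 CPM with vehicle and 368, 382 and 380.0 with LPS, a log2 change of 2.33 (SE 0.07, edgeR adjusted p = 1.1e-09), and the change in KO was 2.41 (SE 0.09). For both caspases KO replicate 6 lay within or close to the other KO libraries, at 0.937 to 1.11 times their mean with vehicle or LPS.

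Casp8 (chr1:58795374-58847503), which starts death receptor apoptosis and restrains necroptosis, rose in WT from 59.6, 58.0 and 57.5 CPM to 124.8, 139 and 133. This was a log2 change of 1.19 (SE 0.06, edgeR adjusted p = 7.0e-08). In KO its median went from 58.9 to 126 CPM, a change of 1.16 (SE 0.20, edgeR adjusted p = 0.00031), and replicate 6 gave the lowest value in both groups, 25.1 and 79.2 CPM. Without that library the change was 1.10.

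The gasdermins went in opposite directions. Gsdmd (chr15:75862327-75867408), the pore former downstream of caspase-1 and caspase-11, rose in WT from 80.2, 76.0 and 68.0 CPM to 272, 270.5 and 277, a log2 change of 1.88 (SE 0.07, edgeR adjusted p = 4.0e-09). The KO change was 1.93 (SE 0.24, edgeR adjusted p = 1.9e-05), from a median of 71.8 to 281 CPM. Replicate 6 was the highest KO library in both, at 139 and 519 CPM, and without it the change was 1.94. Gsdme (chr6:50188888-50263862), a gasdermin cleaved by caspase-3, fell in WT from 24.0, 23.7 and 20.9 CPM to 12.04, 13.8 and 9.90, by 0.94 on the log2 scale (SE 0.12, edgeR adjusted p = 8.3e-05). In KO it went from a median of 21.5 to 12.5 CPM, a log2 change of −0.84 (SE 0.12, edgeR adjusted p = 7.6e-05), and the groups did not overlap in either genotype.

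Of the necroptosis genes, Mlkl rose, and the kinases Ripk1 and Ripk3 were not called with TMM scaling but were called lower with total-count scaling. Mlkl (chr8:111311797-111338177) went from 14.9, 16.99 and 15.4 CPM to 223, 225.5 and 226 in WT, a log2 change of 3.84 (SE 0.07, edgeR adjusted p = 4.3e-11). In KO it went from between 13.5 and 16.0 CPM with vehicle to between 207 and 246 with LPS, by 3.91 (SE 0.09, edgeR adjusted p = 1.7e-11). Ripk1 (chr13:34002363-34037147), the upstream kinase, had 76.4, 79.0 and 79.4 CPM in WT with vehicle against 78.0, 74.3 and 77.8 with LPS. Its log2 change was −0.02 in WT (SE 0.06, edgeR adjusted p = 0.73) and −0.02 in KO (SE 0.10, edgeR adjusted p = 0.90). Ripk3 (chr14:55784995-55788865), the kinase that phosphorylates MLKL, was not called either, at −0.20 in WT (SE 0.09, edgeR adjusted p = 0.081) and −0.11 in KO (SE 0.15, edgeR adjusted p = 0.61), although its 3 WT LPS values (16.5, 19.0 and 19.6 CPM) all lay below the WT vehicle values (20.1, 21.9 and 21.8). Under total-count scaling, which moved the median of all genes as given above, Ripk1 was at −0.44 and Ripk3 at −0.61 in WT, and at −0.41 and −0.49 in KO, where 55.6% and 41.8% of genes were called lower under it. Ripk1 shares 752 of its 8344 exonic bases with Serpinb6a and the processed pseudogene Gm17084.

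**Figure D2:**
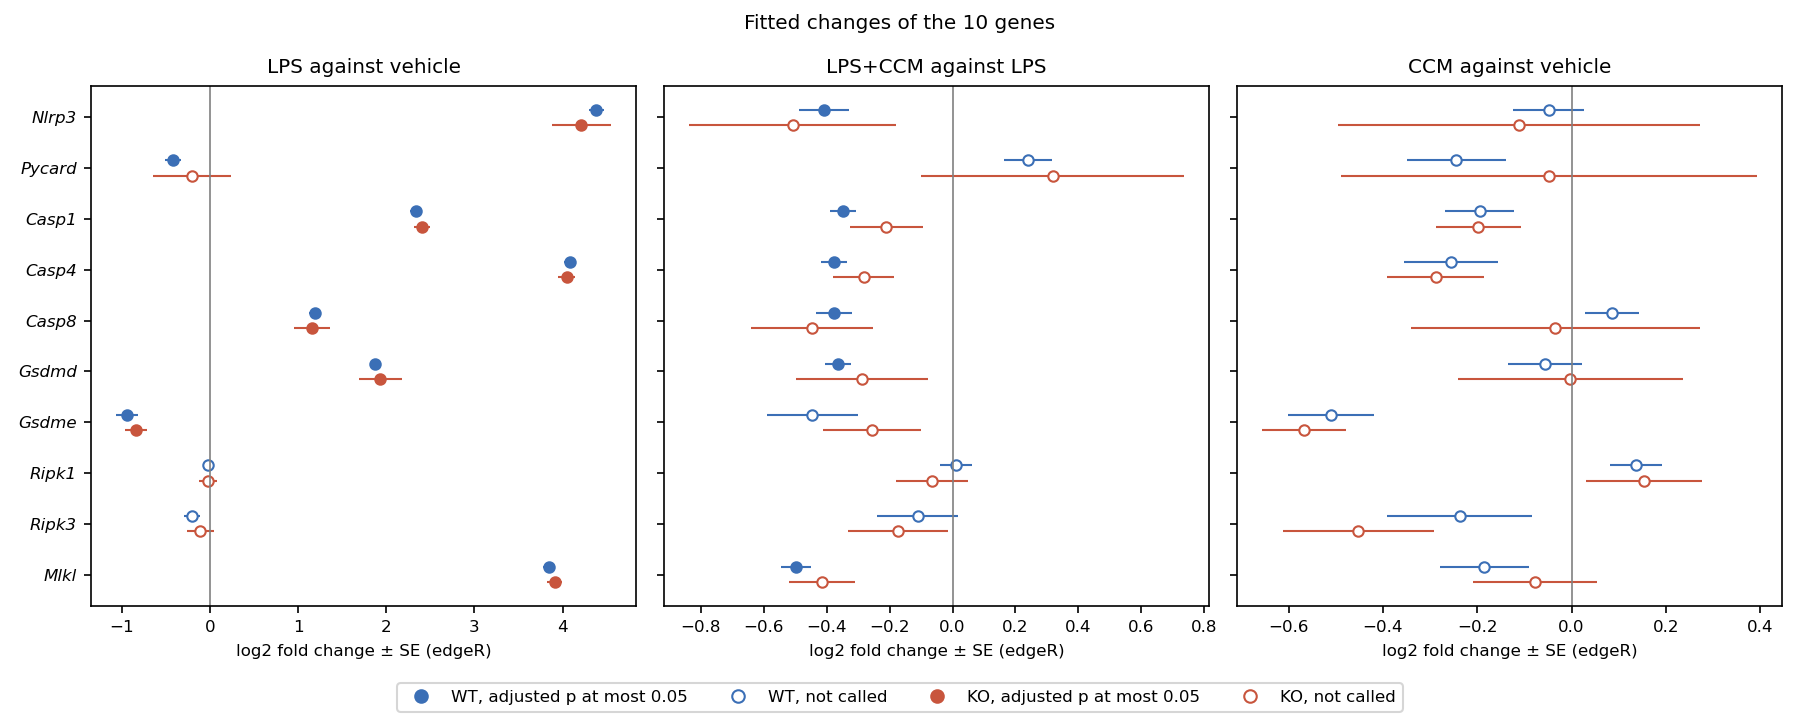
Log2 fold changes ± SE from edgeR for the 10 genes in LPS against vehicle, LPS+CCM against LPS and CCM against vehicle (x axes differ in range), in WT (blue, 3 against 3 libraries) and KO (red, 6 against 6); filled points have an adjusted p of at most 0.05. The LPS changes of Nlrp3, Casp4 and Mlkl lie near 4 in both genotypes, and 6 WT points of LPS+CCM against LPS lie between −0.50 and −0.35 with narrow errors, where the KO errors are wider.

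KO against WT called 0 of the 10 with vehicle and 0 with LPS by edgeR, and 0% of 14385 and of 13794 tested genes in these comparisons were called; at an unadjusted p under 0.05 edgeR had 118 and 105 genes, and DESeq2 called 1 gene in each. The largest fitted difference was that of Pycard with LPS, 0.52 higher in KO (SE 0.46, edgeR adjusted p = 0.99), and without KO replicate 6 it was −0.01 (edgeR adjusted p = 1.0). With vehicle the Pycard difference was 0.32 (SE 0.42), and −0.15 without that library. Leaving out KO replicate 6 left 0 of the 10 called in both comparisons. For the members with tighter spread the difference between the genotypes with LPS was small: 0.03 for Casp4 (SE 0.09), −0.01 for Mlkl (SE 0.09) and −0.01 for Casp1 (SE 0.10). The genotype by LPS interaction, which tests whether the LPS response itself differed, called 0 of the 10 and 0% of 15093 genes (edgeR; 112 genes at an unadjusted p under 0.05, DESeq2 called 0). Its estimates were −0.02 for Casp4 (SE 0.13), 0.09 for Mlkl (SE 0.12) and −0.15 for Nlrp3 (SE 0.45), and without KO replicate 6 they were −0.06, 0.09 and −0.17. For Pycard the estimate was 0.24 (SE 0.66), and 0.12 without that library. A p above the threshold does not show that the genotypes respond alike.

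CCM against vehicle asks what the compound does without LPS. None of the 10 genes was called in WT, where 0.057% of 14024 genes, 8 in all, passed edgeR's test, and 1404 had an unadjusted p under 0.05. None was called in KO either, where 0% of 13799 genes passed and 333 had an unadjusted p under 0.05; DESeq2 called 1 of the 10 lower in each genotype, which was Gsdme, where it called 0.967% of genes lower in WT and 0.0777% in KO. Gsdme had the largest fitted change of the list in both genotypes. It had 16.2, 17.5 and 15.02 CPM with CCM in WT against 24.0, 23.7 and 20.9 with vehicle. The WT groups did not overlap, and the log2 change was −0.51 (SE 0.09, edgeR adjusted p = 0.097). In KO, CCM libraries ran from 12.2 to 15.7 CPM and vehicle libraries from 19.6 to 23.0, again without overlap. That change was −0.57 (SE 0.09, edgeR adjusted p = 0.26), and −0.53 without replicate 6 (edgeR adjusted p = 0.0060; 0.489% of genes called lower). Groups without overlap were seen for 15.6% of 15720 genes in WT and for 0.369% in KO.

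In the KO libraries of this comparison the replicate numbers were taken to pair the samples, and blocked by number 3 of the 10 genes were called lower with CCM, as were 1.7% of 13799 genes. These were Gsdme (−0.56, edgeR adjusted p = 0.0015), Ripk3 (−0.45, edgeR adjusted p = 0.0086) and Casp1 (−0.20, edgeR adjusted p = 0.034), each lower in 6 of 6 pairs. Ripk3 in KO had 16.2 to 27.6 CPM with vehicle and 12.4 to 19.5 with CCM, so that the groups overlapped. The fibroblast markers summed to 507 to 1380 CPM in the KO vehicle libraries and to 295 to 1150 CPM in the KO CCM libraries. The part of this spread in the Ripk3 result was not tested. Ripk1 was higher in 6 of 6 pairs without being called, at 0.15 on the log2 scale (edgeR adjusted p = 0.10 with the block).

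LPS+CCM against LPS asks how the compound changes the stimulated state. In WT cells 6 of the 10 genes were lower with CCM, Mlkl, Nlrp3, Casp4, Casp8, Gsdmd and Casp1, by a narrow range of 0.35 to 0.50 on the log2 scale. Among 13579 tested genes 7.78% were lower and 4.15% higher, and the median of the 10 was −0.37 against 0.01 over all genes tested. This comparison uses the same WT LPS libraries as LPS against vehicle, so the changes of a gene in both are given side by side and not related to each other. The calls over all genes were 564 higher and 1057 lower, and with total-count scaling 1539 higher and 733 lower; these 6 genes were lower and called under both, and 5.4% of all genes were called lower under the second.

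Mlkl had the largest drop of the called genes. WT LPS libraries had 223, 225.5 and 226 CPM and WT LPS+CCM libraries 163, 164 and 150.3. No library overlapped, and the log2 change was −0.50 (SE 0.05, edgeR adjusted p = 0.00013). Nlrp3 went from 787, 722 and 686 CPM to 624, 526 and 503, a change of −0.41 (SE 0.08, edgeR adjusted p = 0.0086). The call for Nlrp3 was lost when WT LPS+CCM replicate 2 was left out (−0.38, edgeR adjusted p = 0.055).

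Casp4, Gsdmd and Casp1 had very little spread. Casp4 went from 215, 214 and 215 to 169, 162 and 165 CPM, with a log2 change of −0.38 (SE 0.04, edgeR adjusted p = 0.00028). Gsdmd went from 272, 270.5 and 277 to 215, 207 and 214 CPM, with −0.36 (SE 0.04, edgeR adjusted p = 0.00033). All 3 LPS+CCM values of each gene lay below all 3 LPS values. Casp1 went from 368, 382 and 380.0 to 298, 300.3 and 289.8 CPM, with −0.35 (SE 0.04, edgeR adjusted p = 0.00040). Casp8 went from 124.8, 139 and 133 to 96.2, 105 and 105 CPM, with −0.38 (SE 0.06, edgeR adjusted p = 0.0020).

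The other 4 genes were not called in WT. Gsdme went from 12.04, 13.8 and 9.90 to 9.10, 9.41 and 7.65 CPM, a log2 change of −0.45 (SE 0.15, edgeR adjusted p = 0.077). Pycard had 25.1, 25.5 and 26.1 CPM with LPS and 27.4, 29.9 and 33.2 with LPS+CCM, a change of 0.24 (SE 0.08, edgeR adjusted p = 0.071). Neither pair of groups overlapped, which was so for 27.8% of 15720 genes. Ripk1 (0.01, SE 0.05) and Ripk3 (−0.11, SE 0.13) lay close to no change. The replicate numbers were taken to pair the WT libraries of this comparison. Blocked by number, 8 of the 10 genes were called, with Gsdme (−0.44, edgeR adjusted p = 0.0051) and Pycard (0.24, edgeR adjusted p = 0.014) added. That fit called 13.3% of genes lower and 10.4% higher. In a fit of all 36 libraries, which takes its spread from the KO libraries too, 0 of the 10 and 0.108% of genes were called, with log2 changes of −0.50 for Mlkl and −0.41 for Nlrp3.

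**Figure D3:**
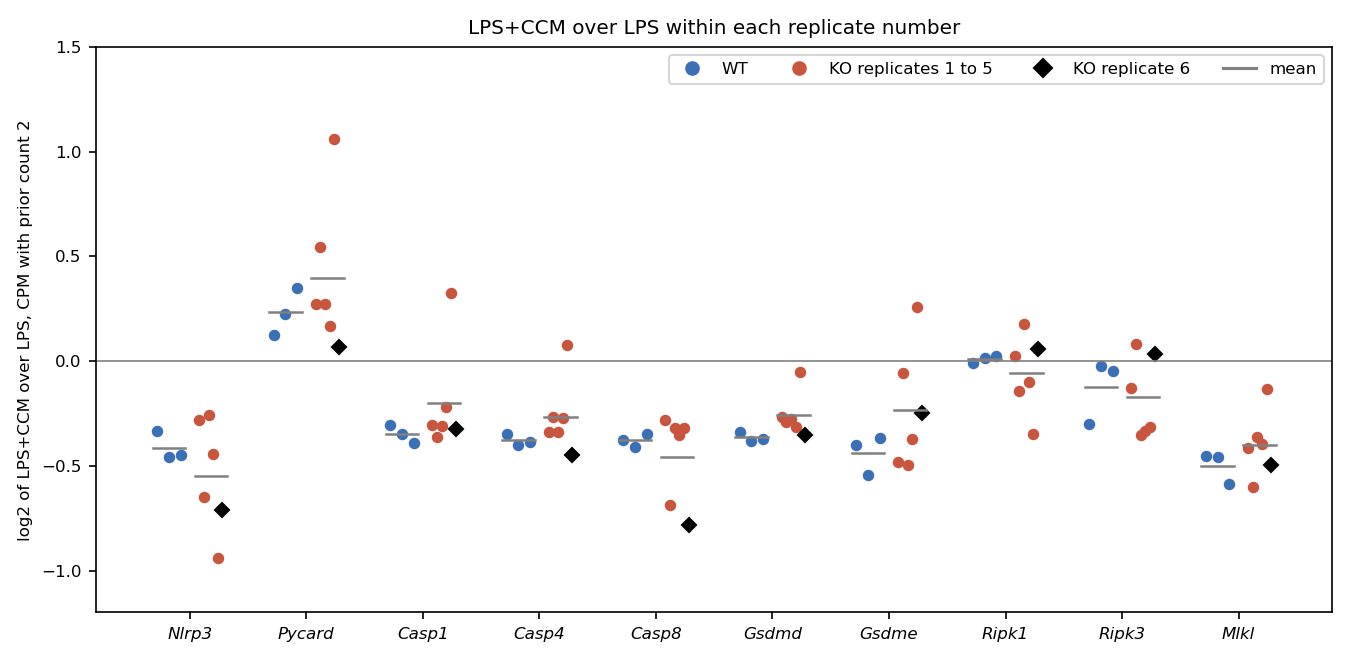
Log2 ratio of LPS+CCM over LPS in libraries with the same replicate number for each of the 10 genes (CPM with a prior count of 2), 3 ratios in WT (blue) and 6 in KO (red, replicate 6 as a black diamond), with grey bars for the mean. All ratios of Nlrp3, Casp8, Gsdmd and Mlkl lie below 0 in both genotypes and all ratios of Pycard above 0, and KO replicate 5 gives the only ratio above 0 for Casp1 and for Casp4.

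In KO cells none of the 10 genes was called for LPS+CCM against LPS, where 0.112% of 13386 genes, 15 in all, passed edgeR's test and 1070 had an unadjusted p under 0.05. DESeq2 called 1 of the 10, Mlkl, at −0.42 (DESeq2 adjusted p = 0.010), and 1.03% of genes lower. The fitted changes of Nlrp3 and Casp8 were larger than in WT, those of Mlkl, Casp4, Gsdmd and Casp1 smaller, and all had wider errors. Nlrp3 was at −0.51 (SE 0.33, edgeR adjusted p = 0.78), Casp8 at −0.45 (SE 0.19, edgeR adjusted p = 0.57) and Mlkl at −0.41 (SE 0.11, edgeR adjusted p = 0.17). Mlkl was the one gene of the list whose KO groups did not overlap, with 207 to 246 CPM for LPS and 149 to 192 for LPS+CCM; such a separation was seen for 1.15% of 15720 genes.

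Within pairs of KO libraries with the same number, Nlrp3, Casp8, Gsdmd and Mlkl were lower with CCM in 6 of 6, and Casp1 and Casp4 in 5 of 6. Pycard was higher in 6 of 6. The exception for Casp1 and Casp4 was replicate 5, whose LPS+CCM library had 424 CPM of Casp1 and 211 of Casp4, the highest of its group for each. The same library had 340 CPM of Nlrp3, where replicates 1 to 4 had 467 to 688. Without KO replicate 6 the changes were −0.48 for Nlrp3 (edgeR adjusted p = 0.16), −0.39 for Casp8 (edgeR adjusted p = 0.049) and −0.38 for Mlkl (edgeR adjusted p = 0.074), so that 1 of the 10 was called lower, as were 0.953% of genes. Gsdmd was at −0.29 with that library and −0.24 without it, and Pycard at 0.32 and 0.50, none of them called. Without replicates 5 and 6 Mlkl was called, at −0.43 (edgeR adjusted p = 0.044), where 0.965% of genes were called lower. Blocked by replicate number over all 6, edgeR called 4 of the 10, Nlrp3, Casp8, Gsdmd and Mlkl, and 554 of 13386 genes lower. With replicate 6 also left out the block called 0 of the 10. The numbers were not taken to pair the libraries of this comparison. The genotype by CCM interaction under LPS called 0 of the 10 and 0% of 14546 genes (edgeR; 72 genes at an unadjusted p under 0.05, DESeq2 called 0). Its estimates ran from −0.08 for Nlrp3 (SE 0.49) to 0.21 for Gsdme (SE 0.24), and from −0.09 for Ripk3 to 0.28 for Pycard without KO replicate 6, so a difference between the genotypes in the effect of CCM on these genes was not detectable with this spread.

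The LPS by CCM interaction in WT tests whether CCM acts differently with LPS than without it, and 2.09% of 14747 genes were called, 69 higher and 239 lower (230 and 117 with total-count scaling). Casp8 was the 1 gene of the 10 called, at −0.48 (SE 0.08, edgeR adjusted p = 0.0076). It had 59.6, 58.0 and 57.5 CPM with vehicle and 60.5, 64.5 and 62.7 with CCM, and then 124.8, 139 and 133 with LPS and 96.2, 105 and 105 with LPS+CCM. Mlkl (−0.33, edgeR adjusted p = 0.069), Gsdmd (−0.32, edgeR adjusted p = 0.094), Nlrp3 (−0.38, edgeR adjusted p = 0.14) and Pycard (0.47, edgeR adjusted p = 0.11) were not called. For Casp1 (−0.17, SE 0.08) and Casp4 (−0.14, SE 0.08) the estimate was smaller, and the fitted change with CCM alone was −0.20 and −0.25. With the replicate block, which called 2.7% of genes lower, Mlkl was called as well (−0.33, edgeR adjusted p = 0.042).

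**Figure D4:**
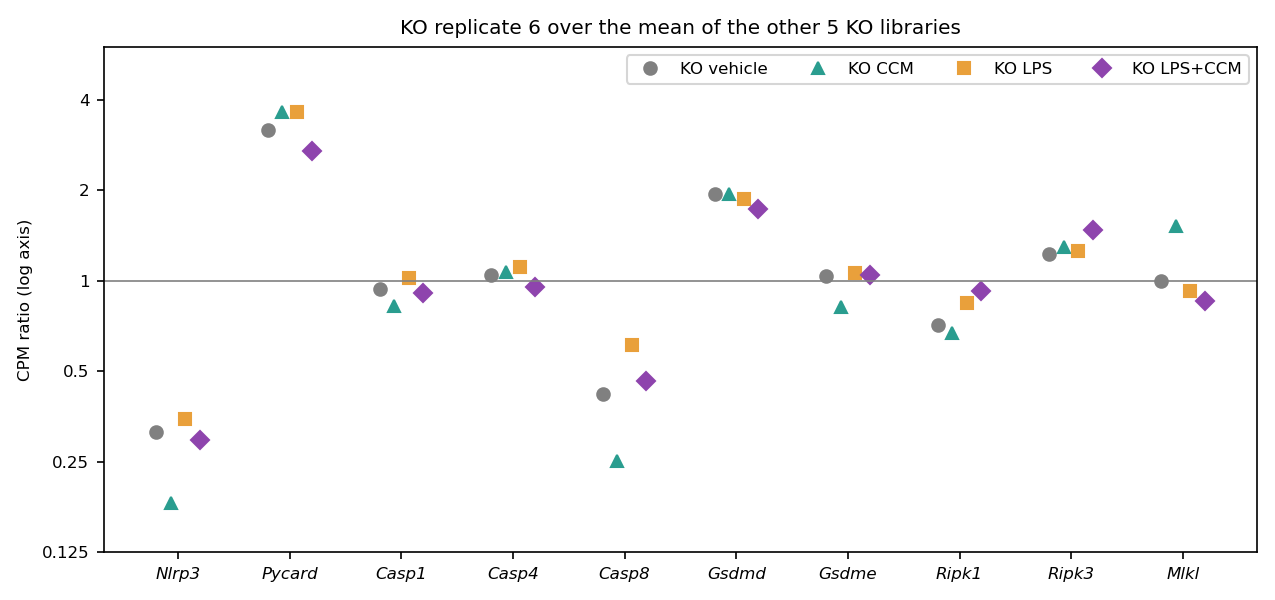
CPM of KO replicate 6 divided by the mean of the other 5 KO libraries of its treatment (log axis), for the 10 genes and 4 treatments. The ratio lies between 2.71 and 3.66 for Pycard and between 1.73 and 1.95 for Gsdmd, between 0.182 and 0.348 for Nlrp3 and between 0.251 and 0.612 for Casp8, and close to 1 for Casp1, Casp4 and Gsdme.

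Replicate 6 of the KO libraries differed from the others gene by gene and not as a whole list. Pycard and Gsdmd were above every other KO library in 4 of 4 treatments, and Nlrp3 and Casp8 below every other in 4 of 4. Ripk3 was above in 3 and Ripk1 below in 3. The GC content of the longest transcript, with a median of 49.5% over the tested genes, was 45.6% for Pycard, 54.4% for Gsdmd and 54.2% for Ripk3, which were high in this library, and 51.0% for Nlrp3, 46.6% for Casp8 and 45.1% for Ripk1, which were low. The longest transcript of Pycard, with 3800 bases, covers all its exonic bases, and the GC content of shorter transcripts was not examined. The part of base composition and length in these ratios was not tested.

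The wider pathway was followed with 56 further genes, of which 54 could be tested in most comparisons; Nlrp6 and Nlrp12 were too low in all. With LPS, 36 rose and 6 fell in WT and 35 rose and 4 fell in KO, with a median log2 fold change of 0.94 and 0.92 against −0.05 over all genes in each. Over all genes 30.6% rose and 32.4% fell in WT and 22.4% and 24.7% in KO. The largest rises in WT were Il1b (10.66), which encodes the IL-1β precursor cleaved by caspase-1, Gbp5 (10.53), a guanylate-binding protein of the non-canonical route, and Il1a (9.75). Il1b went from 2.43 ± 0.520 CPM to 3550 CPM or more in each LPS library (n = 3). The largest falls in WT were Nlrp1b (−4.05) and Naip1 (−1.16), which encode other inflammasome sensors, and P2rx7 (−1.10), the ATP receptor whose potassium efflux triggers NLRP3. By role, all 3 cytokine genes, all 5 genes of executioner caspases, rupture and gasdermin transcription and all 4 non-canonical genes rose in both genotypes. Of the 9 other sensors tested, 4 rose and 2 fell in each. These calls are edgeR's.

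With CCM alone edgeR's main fit called 0 of the 54 pathway genes in either genotype. In WT, DESeq2, no filter and the replicate block each called 2, where they called 239, 377 and 255 genes in all. In KO the block called 4 (429 genes in all). The fit of all 36 libraries (14 genes in all) and that without KO replicate 6 (141 genes in all) each called 1 in KO. For LPS+CCM against LPS in WT, 22 were lower and 2 higher, where 7.78% and 4.15% of all genes were, with a median of −0.15 against 0.01. The largest falls were Irf1 (−0.82, SE 0.10), a transcription factor that induces several genes of this pathway, Tlr3 (−0.81, SE 0.06) and Il18 (−0.79, SE 0.09). Irf1 went from 243 ± 18.2 to 137 ± 20.6 CPM and Il18 from 63.5 ± 8.20 to 36.6 ± 0.736 (n = 3 each). All 3 cytokine genes were lower, 3 of 4 non-canonical genes and 7 of 14 brakes on cell death, the group that holds the inhibitors of apoptosis and the linear ubiquitin ligase. The 2 that rose were Pstpip1 (0.56, SE 0.05), which binds pyrin, and Kcnk6 (0.29, SE 0.07), a potassium channel. In KO 0 of 53 were called by edgeR, and 9 without replicate 6. The LPS by CCM interaction in WT called 10 lower and 1 higher, with Tlr3 (−0.93), Il18 (−0.75) and Rnf31 (−0.61) the largest falls and Pstpip1 (0.61) the 1 rise. The pathway genes were chosen with results of these data known, and their counts are a description.

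**Figure D5:**
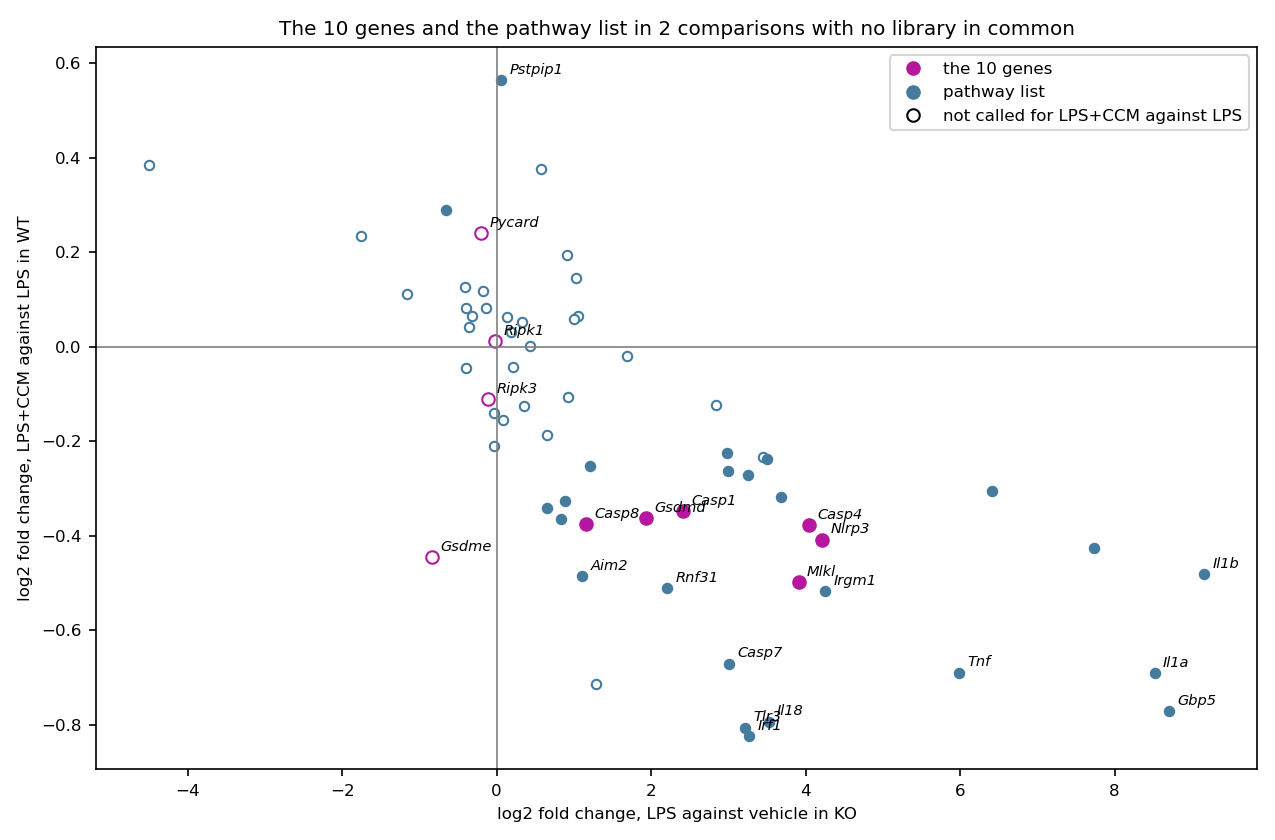
Log2 fold change of LPS against vehicle in KO (x) and of LPS+CCM against LPS in WT (y) for the 10 genes (magenta) and 54 pathway genes (blue), with filled points called for LPS+CCM against LPS; the axes share no library. The 6 of the 10 genes that are called on the y axis lie at x values from 1.16 for Casp8 to 4.21 for Nlrp3, and Pstpip1 lies near x = 0 at 0.56.

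LPS against vehicle in KO and LPS+CCM against LPS in WT have no library in common, and these can be set against each other. The 6 genes of the 10 that rose with LPS in KO were the same 6 that were lower with CCM in WT. Of the pathway genes, all 22 that were lower with CCM in WT had risen with LPS in KO, which is 62.9% of the 35 that rose. The same relation held widely: of 1044 genes lower with CCM in WT among the 13197 tested in both, 838 (80.3%) had risen with LPS in KO, which is 27.4% of the 3057 that rose, where 23.2% of all these genes rose. Nothing particular to the 10 genes or the pathway list is read from the overlap.

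Genes whose log2 CPM followed those of 3 of the 10 genes most closely over the 36 libraries were Nfkb1 and Tnfaip3 (r = 0.997 each) and Igsf6 (r = 0.995) for Nlrp3. For Mlkl they were Casp4, Slfn5 and Sp110 (r = 0.997 each), and for Gsdmd Dbnl (r = 0.996), Tbc1d13 (r = 0.995) and Tap2 (r = 0.995), out of 11177 genes. These Pearson correlations share the 4 treatments, the same libraries and the shifts of KO replicate 6, and are given as a description.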

How the data were processed

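RNA-seq counts of 36 mouse BMDM libraries were used. Per the labels and the submitters' processing notes, the authors selected poly(A) RNA, trimmed reads with fastp, aligned them to mm10 with HISAT2 2.0.5 and deposited whole-number counts per gene from featureCounts 1.5.0-p3; the strand setting is not given in the sources used here. Every one of the 36 count columns entered the analysis.

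Only the groups of a comparison entered its fit in edgeR 4.0.16 (R 4.3.3): filterByExpr, TMM scaling, estimateDisp, glmQLFit and glmQLFTest, two-sided, without a block, with Benjamini-Hochberg adjustment at 0.05 over all genes tested. SE is the log2 fold change divided by the square root of F. Log2 CPM used a prior count of 2. The scripts were tested on simulated counts in which 200 genes changed by 1 on the log2 scale. For LPS in WT, 70.5% of these genes were recovered and 12.42% of the calls were false. The values were 69.5% and 5.442% for LPS+CCM in WT, and 43% and 6.522% for LPS+CCM in KO. Each share of false calls was above the level of 0.05 used for calling, and that for LPS in WT was the farthest above it. Smaller changes, such as those of the 10 genes with CCM under LPS, were not simulated. All 10 genes passed the filter on low counts in every comparison. Taken over many genes together, no 2 libraries of a group agreed within counting noise (the lowest chi-square divided by its degrees of freedom was 4.34). This does not show whether replicate spread or depth limits precision for a single gene. Gsdme had 147 to 180 counts in the WT LPS+CCM libraries.

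The 10 genes, the pathway list, the markers and the motifs were chosen with earlier results of these data known. All 10 genes are named in every comparison, and up to 3 called pathway genes in each direction with the largest change; exceptions are stated. Pairing by replicate number was decided from the correlation of library deviations from group means, with a fixed cutoff between 0.0846 and 0.122. The lowest same-number correlation was 0.245 (LPS in KO), 0.259 (CCM in KO) and 0.122 (LPS+CCM in WT), so the numbers were taken to pair these libraries. It was 0.0846 (LPS in WT), 0.0746 (CCM in WT) and −0.0563 (LPS+CCM in KO), so they were not taken to pair those. The WT LPS libraries were thus treated as paired with LPS+CCM but not with vehicle. In each of these WT comparisons 3 of 3 libraries correlated best with their own number. Alternatives were DESeq2 1.42.0, RLE scaling, total counts, no filter, a fit of all libraries, the replicate block and leaving out libraries. Coordinates are GRCm38, in GENCODE M21 and the table alike.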

Additional observations from a re-analysis of the deposited data

Results flagged for a closer look

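Among 40 groups of 6 KO libraries (10 genes in 4 treatments), 18 extreme libraries stood farther from the rest than Dixon's test allows at 95%, where chance alone would flag about 5% of groups. Replicate 6 gave 16 of the 18. Pycard was highest there in all 4 treatments, at 98.3 CPM (vehicle), 102 (CCM), 93.0 (LPS) and 97.5 (LPS+CCM). Gsdmd was highest at 139, 138, 519 and 407 CPM in the same order. Casp8 was lowest at 25.1, 15.0, 79.2 and 46.0 CPM. Nlrp3 was lowest with vehicle (12.3 CPM) and LPS (254 CPM). With CCM, Ripk1 was lowest at 60.4 CPM and Mlkl highest at 19.5 CPM. The other 2 flags were Casp1 in KO LPS+CCM replicate 5, the highest at 424 CPM, and Casp4 in KO vehicle replicate 3, the lowest at 11.7 CPM.

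Casp8 was set apart by the LPS by CCM interaction in WT, a log2 difference of −0.48 between the effect of CCM with LPS and without it (edgeR adjusted p = 0.0076).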

How the results depend on the processing

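No fold change of the 10 genes turned its direction past the threshold under any alternative, and of 1600 fold changes recomputed, 1548 kept their side of the threshold, 43 passed it newly and 9 no longer passed. For CCM against vehicle in WT, DESeq2, no filter and the replicate block each called 1 of the 10 genes, against 0. In KO, DESeq2, the fit of all 36 libraries and leaving out KO replicate 6 each called 1, and the replicate block called 3, also with replicate 6 left out. For LPS+CCM against LPS in WT, the fit of all 36 libraries called 0, against 6. In KO, DESeq2, the fit of all 36 libraries, leaving out replicate 6 and leaving out replicates 5 and 6 each called 1, and the replicate block 4. For the LPS by CCM interaction in WT, against 1, DESeq2 called 4, total counts 2, no filter 3, the fit of all libraries 0 and the replicate block 2. The cause of these changes was not tested. Over fits without 1 library the count ran from 5 to 7 for LPS+CCM in WT and from 1 to 2 for the interaction in WT. In KO a replicate number was left out of both groups at once. There the count ran from 0 to 1 for CCM and for LPS+CCM, and from 7 to 8 for LPS.

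Many counts over all genes moved by more than 1.5 times. With the fit of all 36 libraries, LPS in WT went from 9139 to 5644, CCM in WT from 8 to 0, CCM in KO from 0 to 14, LPS+CCM in WT from 1621 to 17, LPS+CCM in KO from 15 to 285 and the interaction in WT from 308 to 0. DESeq2 called 239 for CCM in WT, 20 for CCM in KO, 184 for LPS+CCM in KO and 689 for the interaction, and no filter called 377 for CCM in WT and 721 for the interaction. The replicate block gave 9774 for LPS in KO against 6433, 255 for CCM in WT, 429 for CCM in KO, 3220 for LPS+CCM in WT, 777 for LPS+CCM in KO and 548 for the interaction. In CCM in WT and LPS+CCM in KO the numbers were not taken to pair the libraries, although 3 of 3 and 4 of 6 libraries correlated best with their own number. KO against WT with LPS went from 0 to 1 with DESeq2, the block, WT replicate 1 left out, or KO replicates 5 and 6 left out, and KO against WT with vehicle from 0 to 1 with DESeq2. The block without KO replicate 6 gave 10023 for LPS in KO, 729 for CCM in KO and 304 for LPS+CCM in KO, and leaving out KO replicates 5 and 6 gave 2 for CCM in KO and 171 for LPS+CCM in KO. Without KO replicate 6, CCM in KO had 141 and LPS+CCM in KO 170, and leaving out any other KO replicate gave 0 to 7 for the latter. LPS+CCM in WT fell to 958 without WT LPS replicate 2 and to 893 without WT LPS+CCM replicate 2, CCM in WT ran from 0 to 16 without 1 library, and the interaction fell as low as 149, without WT LPS+CCM replicate 3.

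In LPS+CCM in KO with the block, Nlrp3 (−0.56), Casp8 (−0.47), Gsdmd (−0.28) and Mlkl (−0.42) were called by edgeR, and 0 when replicate 6 was also left out. The block changed no other call of the 10 genes beyond those given. Leaving out KO replicates 5 and 6 together, and the block without replicate 6, were chosen after seeing the data. The common biological coefficient of variation was 0.304 to 0.338 in KO comparisons of treatments and 0.078 to 0.114 in WT, which bears on how small a change can be called.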
